A study of Macaca mulatta with 48 samples.

Results

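Cells that co-detected genes of undifferentiated spermatogonia were followed through testes of the rhesus macaque (Macaca mulatta) across 3 ages and both seasons. A cell was a member when at least 2 of the 6 genes PIWIL4, UTF1, NANOS2, NANOS3, EGR4 and FGFR3 had at least 1 UMI (unique molecular identifier, 1 counted RNA molecule), SYCP1 had none, and PRM1, PRM2 and TNP1 together took under 5% of its UMIs. Only barcodes with 300 or more genes, no more than 30000 UMIs and no more than 3% of mitochondrial UMIs were used. The rule found 1884 members among 112150 filtered cells, from 112577 barcodes. Members were chosen by measured RNA, so the levels of these genes in them are a description. The study sampled 6 animals, 2 each at the prepuberty, adult and aged stages, taking 1 testis of each in August (non-breeding season) and the opposite one in December (breeding season), so that 1 library stands for 1 testis. The breeding testis was thus always the one removed second, and season and order of removal cannot be told apart. No label names a strain, genotype or treatment, and the tissue of every sample is testis.

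Undifferentiated spermatogonia include the stem cells of the male germ line. They lie on the basement membrane of the seminiferous tubule among Sertoli cells, the somatic nurse cells, and either renew themselves or give rise to differentiating spermatogonia, which switch on KIT, multiply and enter meiosis. UTF1 is a chromatin-associated factor of pluripotent cells and early spermatogonia. NANOS2 and NANOS3 are RNA-binding repressors of germ cell differentiation, PIWIL4 is a piRNA-binding Argonaute of the transposon defence, EGR4 is a zinc finger factor of the immediate early EGR family, and FGFR3 is a fibroblast growth factor receptor. On the Mmul_10 assembly UTF1 lies at chr9:133693807-133695172 (plus strand), EGR4 at chr13:35479149-35482004 (plus), FGFR3 at chr5:1850711-1865822 (plus) and NANOS2 at chr19:45999234-46000873 (minus). NANOS3 at chr19:13466053-13482334 (plus) spans the microRNA genes MIR181C and MIR181D on its own strand. PIWIL4 at chr14:87787642-87837811 (plus) overlaps the uncharacterised loci LOC114672379 and LOC114672380 on the opposite strand.

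The name did not hold for most prepubertal members, so they are called marker-positive cells here. Of 1399 prepubertal members, 109 (7.79%) held more UMIs of a 12-gene germ line list (DDX4, DAZL, MAGEA4, TKTL1 and others) than of a 16-gene Sertoli list (AMH, SOX9, INHA and others). In adults it was 231 of 418 (55.3%) and in aged animals 60 of 67 (89.6%). Among cells that met the other criteria but had none of the 6 genes, 0.913% of prepubertal, 29.3% of adult and 48.6% of aged cells lay on that side, so the share without any marker rose with age as well. The 400 members with more germ line UMIs are called the germ line side and the other 1484 the Sertoli side. This split was made after the data were seen and is used as a description. Members with equal counts, or with no UMI of either list, fall on the Sertoli side. That name thus says only that the germ line list was not the higher one, and many adult members lay near the line. A UMI of DDX4, DAZL or MAGEA4, which mark the germ line, was found in 6.26% to 23.2% of members in the 4 prepubertal libraries, against 57.9% to 65.7% in the 3 adult libraries with members and 37.2% to 60.0% in the 4 aged ones. All filtered cells gave 1.84% to 7.28% in prepuberty, 27.9%, 41.4% and 46.9% in the same adult libraries and 33.6% to 49.9% in the aged ones. Members lay below all cells in the aged library with most members (37.2% against 43.7%) and close to them in the breeding testis of the same animal (40.0% against 37.8%). At least 2 of the Sertoli genes AMH, SOX9, FATE1, CST9L and INHA were found in 89.0% to 97.6% of prepubertal members, beside 73.6% to 88.8% of all filtered cells of those libraries. In the adult non-breeding testes 80.6% and 52.3% of members had them, beside 82.3% and 52.7% of all cells, and in the aged library with most members 4.65%, beside 4.24%.

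**Figure D1:**
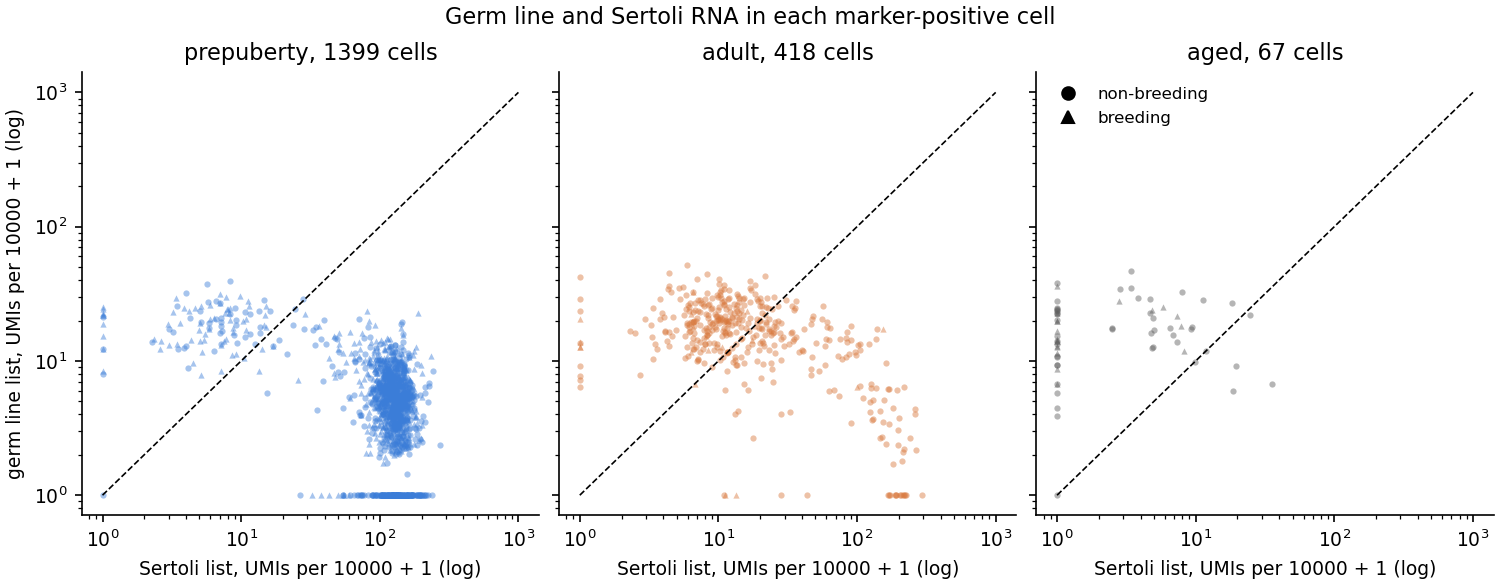
Each point is 1 marker-positive cell, with its UMIs of the Sertoli list (x axis) and of the germ line list (y axis) per 10000 UMIs plus 1, both on log axes, in 1 panel per age. Circles are non-breeding and triangles breeding testes, and cells above the dashed line of equal values are the germ line side. Most of the 1399 prepubertal cells form a cloud of high Sertoli RNA, while adult cells run across the line and 60 of the 67 aged cells lie on the germ line side.

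Few prepubertal members lay near the line, but the germ line side was itself small. Within 1 log2 unit of each other were the lists of 16 of 164, 9 of 346, 8 of 575 and 11 of 314 members. These are the libraries non-breeding 1, breeding 1, non-breeding 2 and breeding 2. The adult non-breeding testes had 85 of 248 and 68 of 151 such members. Lists from equal to 1 log2 unit towards the germ line were held by 12, 7, 4 and 9 prepubertal members. Their germ line side had 29, 33, 18 and 29 cells in all. At least 2 of the Sertoli genes named above were found in 13, 8, 8 and 4 of those cells. Median depth differed between members and the rest, at 6387 to 8689 UMIs in prepubertal members against 2635 to 3082 UMIs in all filtered cells. Predicted doublets made up 9.58% to 22.6% of the prepubertal Sertoli side and 0% to 3.45% of the prepubertal germ line side, against 5.77% to 9.07% of all prepubertal cells. The part of doublets and depth in the composition was not tested.

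UTF1 carried the rule. It was detected in 95.8% of members, EGR4 in 54.8%, NANOS3 in 46.3%, PIWIL4 in 8.70% and FGFR3 in 1.06%, and NANOS2 in 2 cells in all. Without UTF1 the rule would keep 203 members. Exactly 2 of the genes were found in 1759 members, 3 in 122 and more in 3. The composition differed by pair. Of 832 prepubertal members with UTF1 and EGR4, 3.12% lay on the germ line side, against 12.2% of 517 with UTF1 and NANOS3 and 59.6% of 52 with UTF1 and PIWIL4. In adults the same pairs gave 31.2% of 112, 68.1% of 248 and 51.9% of 79 members. PIWIL4 was found in 3.93% of prepubertal, 20.1% of adult and 37.3% of aged members, and EGR4 in 64.0%, 28.7% and 25.4%.

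The values around the threshold showed how the rule worked at each age. Among prepubertal cells that met the other criteria, 0.913% of 26495 with none of the genes lay on the germ line side, 1.38% of 10362 with 1, 7.08% of 1327 with exactly 2 and 20.8% of 72 with 3 or more. In aged animals these shares were 48.6%, 73.7%, 87.5% and 100% (the last of 11 cells). In adults they were 29.3%, 24.1%, 55.1% and 57.1%, so that adult cells with 1 of the genes lay below those with none. A UMI of DDX4, DAZL or MAGEA4 was found in 45.2%, 51.8%, 39.3% and 54.5% of the same aged cells, with no steady rise. For prepuberty it was 2.45%, 4.07%, 10.6% and 25.0%, and for adults 37.4%, 30.3%, 65.2% and 52.4%. The aged medians of the Sertoli list were 0 or 1 UMI. The condition on SYCP1, a synaptonemal complex gene, also kept cells out. Another 122 prepubertal, 183 adult and 35 aged cells had at least 2 of the genes but also a UMI of SYCP1, and 60.7%, 62.8% and 88.6% of them lay on the germ line side. For the prepubertal testes that is 74 germ line side cells outside the rule beside 109 inside it.

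UTF1 was also found outside the members. At least 1 UMI was seen in 13083 (11.7%) of all filtered cells, and in 25.7% of prepubertal, 8.93% of adult and 1.12% of aged cells. In prepubertal cells with 2 Sertoli genes that were no members, 22.4% to 31.4% had UTF1 at median depths of 2823 to 3969 UMIs, and 7.36% to 9.16% after each cell was thinned to 1000 UMIs. Myeloid cells, which should lack UTF1, gave the background. In the first non-breeding prepubertal testis the UTF1 share of the Sertoli cells (29.7%) did not exceed that of 42 myeloid cells (31.0%, median 3111 UMIs), while 452 peritubular cells had 20.1% (median 2674.5 UMIs) and 110 endothelial cells 18.2% (median 5501 UMIs). At 1000 UMIs per cell the order was the other way, with UTF1 in 9.16% of the Sertoli and 2.44% of 41 myeloid cells of that testis. In the other 3 prepubertal libraries 31.4%, 22.4% and 26.8% of Sertoli cells had UTF1 beside 17.6% of 17, 10.0% of 50 and 3.70% of 27 myeloid cells, whose median depths were 1580, 2529 and 1711 UMIs. Thinned, those myeloid cells gave 23.1% of 13, 2.08% of 48 and 4.17% of 24, beside 8.53%, 7.36% and 8.62% of the Sertoli cells. As counts per 1000000 UMIs (CPM), UTF1 stood at 104, 95, 78.7 and 86.2 in the Sertoli cells and at 103, 142, 106 and 16.0 in the myeloid cells of the same 4 libraries. Against the myeloid cells the CPM was thus higher in the Sertoli cells by more than 1 unit only in the breeding testis of animal 2. Peritubular cells had 65.1, 77.6, 56.3 and 30.3 CPM in the same order, below the Sertoli cells in each of the 4 libraries. Endothelial cells had 65.7, 82.4, 261 and 22.0 CPM, above the Sertoli cells in the non-breeding testis of animal 2 (17 endothelial cells) and below them in the other 3. How much of the UTF1 RNA in Sertoli cells was free RNA was not tested.

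In prepuberty UTF1 stood higher on the germ line side. Members were chosen by UTF1 among other genes and differentiating cells as non-members, so the levels below are partly set by that choice and are a description. Its 4 prepubertal libraries had 557, 653, 664 and 643 CPM, the 3 adult libraries with members 419, 584 and 493 CPM, and the aged library with 39 such cells 562 CPM. The prepubertal Sertoli side had 172 to 212 CPM, with a UTF1 UMI in 91.9% to 99.3% of its cells. In adults the sides were closer, with 340, 496 and 486 CPM of UTF1 on the Sertoli side. Differentiating spermatogonia, defined as non-members with at least 2 of KIT, STRA8, SOHLH2, DMRTB1, REC8 and ESX1 under the same limits on SYCP1, PRM1, PRM2 and TNP1, had 64.2 CPM in the first non-breeding prepubertal testis and 0 to 43.7 CPM in adult and aged testes with such cells. The other 3 prepubertal libraries, with 7, 3 and 5 such cells, had 248, 176 and 140 CPM, beside 172 to 212 CPM on the Sertoli side.

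**Figure D2:**
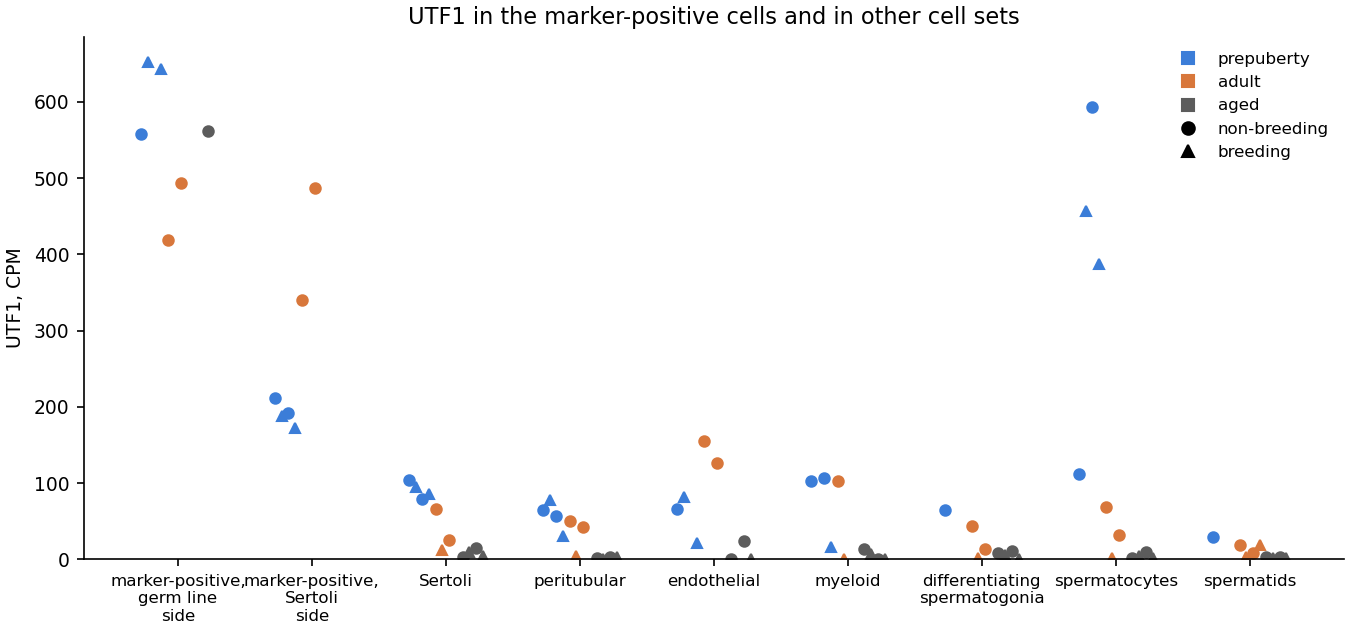
UTF1 in CPM (y axis) in both sides of the marker-positive cells and in 7 other cell sets (x axis), 1 point per library with at least 20 cells of the set. Colours give the age, circles non-breeding and triangles breeding testes. The germ line side lies above the Sertoli side in prepuberty. Prepubertal cells with SYCP1 and another meiotic gene, listed as spermatocytes, also reach 388 to 593 CPM in 3 libraries.

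Without thinning for depth, marker-positive cells made up 3.59% of prepubertal, 1.44% of adult and 0.152% of aged filtered cells. Prepubertal cells were 74.3% of all members. In the prepubertal animals the share went from 1.57% (exact 95% binomial interval 1.34% to 1.82%) in the non-breeding to 4.80% (4.32% to 5.32%) in the breeding testis of animal 1, and from 5.07% (4.67% to 5.49%) to 3.17% (2.83% to 3.53%) in animal 2. In the adults it went from 2.68% (248 of 9239 cells) to 0.202% (19 of 9383) in animal 1, and from 1.47% (151 of 10298) to 0 of 117 cells in animal 2. That count of 0 has an exact interval up to 3.10%, and 3 cells of 117, the floor used here, would be 2.56%. In the aged animals it went from 0.0389% (5 of 12869) to 0.121% (9 of 7411) and from 0.328% (43 of 13128) to 0.0927% (10 of 10787). Seasons thus moved in opposite directions within prepuberty and within the aged pair, and the intervals cover counting error only. With each cell thinned to 1000 UMIs before the rule, non-breeding shares were 0.153% and 0.483% in prepuberty and 0.481% and 0.287% in adults. Aged non-breeding testes then had 0.00866% and 0.138%. The thinned breeding shares were 0.413% and 0.259%, 0.0706% and 0 of 44 cells, and 0.0477% and 0.0422%, in the same order of ages. At this depth both adult non-breeding values lay within the prepubertal range.

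On the germ line side alone the picture by age differed. Its share of cells was 0.277% and 0.159% in the non-breeding and 0.458% and 0.293% in the breeding prepubertal testes. The adult non-breeding testes had 1.28% (118 cells) and 0.981% (101 cells), against 0.128% (12 cells) in the breeding testis of animal 1. Aged testes held 0.0155% and 0.297% in the non-breeding and 0.121% and 0.0927% in the breeding season. The adult non-breeding testes were the 2 highest of the 12 libraries, with intervals of 1.06% to 1.53% and 0.80% to 1.19% that overlapped each other and, of the rest, only that of the library with 117 filtered cells. Shares depend on the other cells present, and with 2 animals per age no test between ages was made.

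**Figure D3:**
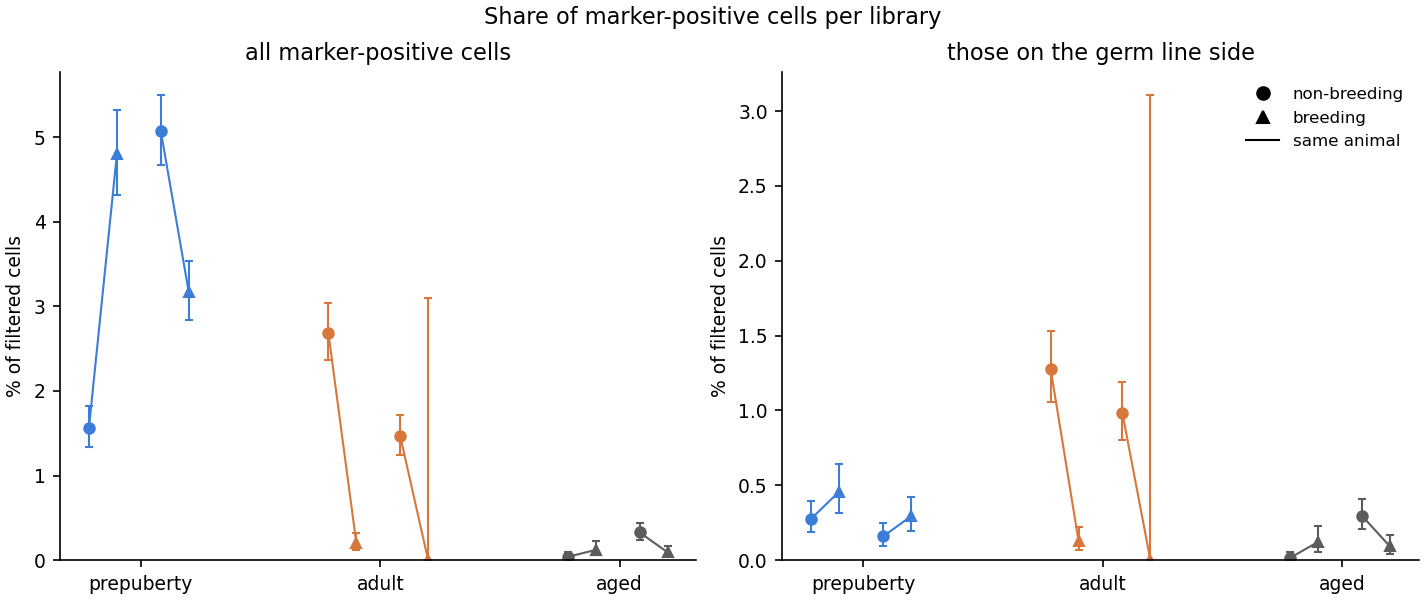
Share of filtered cells in % (y axis) for all marker-positive cells (left) and for the germ line side (right) in each library, with exact 95% binomial intervals that cover counting error only. Lines join the non-breeding (circle) and breeding (triangle) testis of 1 animal. Adult animal 1 went from 2.68% to 0.202% on the left and from 1.28% to 0.128% on the right, and the long bar is the adult library with 117 cells.

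Over the 6 animals the seasonal change of the share did not hold up against its spread. The mean log2 ratio, breeding over non-breeding, was -0.79 ± 2.09 (SD, n = 6; exact sign-flip permutation test, two-sided, p = 0.344, adjusted p = 1.0 over 3 tests), higher in 2 of 6 animals. The smallest p this design allows is 0.03125. After each cell was thinned to 1000 UMIs before the rule the mean was 0.05. In that setting adult animal 2, with 0 of 44 breeding cells, entered as 1.92 through the 0.5 added to counts. Unthinned, with 0 of 117, it entered as -1.80. The other animals kept their sign, so the turn in the mean does not show that depth removed the change. For the germ line side it was -0.30 ± 2.14 (exact p = 0.719), higher in 3 of 6. The seasonal log2 change in the ratio of members to differentiating spermatogonia was 0.14 ± 2.92 (SD, n = 6; exact p = 0.969), and its sign turned without prepubertal animal 1 (-0.75) or adult animal 2 (-0.33). In adult animal 1 that ratio was 0.559 in August and 0.0521 in December. For adult animal 2 the breeding counts were 0 members and 0 differentiating cells, so its value in both tests rests on the 0.5 added to each count.

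Cells with RNA of MKI67 or TOP2A, which dividing cells make, were compared at 1000 UMIs per cell. Of the germ line side, 18.2% of 231 adult, 12 of 60 aged and 9.35% of 107 prepubertal cells had such a UMI, against 5.38% of 186 adult and 1.32% of 1284 prepubertal cells of the Sertoli side. Unthinned, the same germ line side cells gave 41.1%, 35.0% and 39.3% in the same order. One library set the prepubertal value, since 7 of its 10 cells with such a UMI came from the first non-breeding testis (24.1% of 29 cells), and the other 3 libraries gave 3 of 78 (3.85%). In the differentiating spermatogonia the thinned share was 51.9% of 81 cells in that first testis, and 50.8% and 17.2% in the adult non-breeding testes, where the germ line side had 18.6% and 18.8%. In the second aged non-breeding testis it was 7.78% of 463 differentiating cells and 20.5% of 39 germ line side cells. Free RNA can add to these shares. Both prepubertal animals allowed a seasonal comparison over all members, with 7.32% against 0.875% in animal 1 and 1.04% against 1.94% in animal 2, non-breeding first, a mean difference of -2.77 ± 5.19 percentage points (SD, n = 2; exact permutation p = 1.0, smallest possible 0.5).

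What the germ line side shared beyond the rule was read mainly from genes that neither the rule nor the split used, and those the split used are named as such. L1TD1, an RNA-binding protein of pluripotent cells, stood at 207, 137, 123 and 204 CPM in the prepubertal libraries (in the order non-breeding 1, breeding 1, non-breeding 2, breeding 2), and at 193 and 156 CPM in the adult non-breeding ones. On the prepubertal Sertoli side L1TD1 was at 0.438 to 9.63 CPM, so the sides did not overlap. RET, the receptor chain for GDNF, the niche factor that keeps stem cells dividing, was at 53.9, 84.2, 111 and 117 CPM on the prepubertal germ line side and at 49.6 and 50.7 CPM in the adult non-breeding testes. The prepubertal Sertoli side had 1.27 to 3.51 CPM of RET. ID4, an inhibitor of DNA binding that marks stem cells, was at 144, 268, 295 and 507 CPM on the prepubertal germ line side and at 13.1 to 38.5 CPM on the Sertoli side. In the adult non-breeding testes ID4 did not part the sides, with 116 and 183 CPM against 130 and 162 CPM.

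Of the 28 genes of the undifferentiated list in the files 26 had a UMI on either prepubertal side. In 18 of them the 4 germ line side values lay above all 4 Sertoli side values, against 17.7% of 21139 genes with a UMI, and in 3 (ERBB4, ITGA6 and CDH1) below them, against 13.2%. The summed level of the list was lower on the germ line side in all 4 libraries, at 1671 against 3117, 1974 against 3800, 2110 against 3848 and 2558 against 4632 CPM. ERBB4 set that order, since without it, a choice made after its values were seen, the sums were 1483 to 2416 CPM on the germ line side and 502 to 567 CPM on the Sertoli side. SALL4, a zinc finger factor of stem cells, was at 18.0 to 49.4 CPM on the prepubertal germ line side and at most 0.949 CPM on the Sertoli side. The factor ETV5 stood at 49.2 to 111 against 3.51 to 12.3 CPM, and LIN28B, which blocks let-7 maturation, at 78.9 to 161 against 1.75 to 9.63 CPM. MSL3, a chromatin protein, was at 98.8 to 252 against 16.0 to 28.8 CPM. Of the 13 genes listed for differentiating spermatogonia 7 were higher on the prepubertal germ line side without overlap and 6 overlapped, with SOHLH1, a bHLH factor of spermatogonia, at 166 to 237 against 2.63 to 12.3 CPM and PRAME, a cancer-testis antigen, at 252 to 337 against 7.45 to 28.0 CPM. In the transposon defence 14 of 15 genes were higher without overlap and DNMT3A lower, and PIWIL2 was at 84.2 to 209 against 8.33 to 20.1 CPM and TDRD1 at 117 to 137 against 3.94 to 18.4 CPM. Among those 14, DDX4 and MAEL are also on the germ line list that made the split, so their direction is not independent of it. GFRA1, the co-receptor of RET, was at 22.5 to 111 CPM on the prepubertal germ line side and at 0.438 to 3.50 CPM on the Sertoli side, beside 9.88 CPM in the differentiating cells of the first prepubertal testis and 13.4 to 72.7 CPM in those of the adults.

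ERBB4, the neuregulin receptor on that list, was at 189, 147, 166 and 142 CPM on the prepubertal germ line side and at 2615, 3234, 3286 and 4070 CPM on the Sertoli side. Among all cells of the 4 libraries ERBB4 stood at 2265 to 3759 CPM. PDGFRA, a receptor for platelet-derived growth factors, lay at 785 to 966 CPM on the prepubertal germ line side and at 651 to 769 CPM on the Sertoli side, so that the sides did not overlap, while all cells had 671 to 851 CPM. In the adult non-breeding testes PDGFRA was at 1203 and 829 CPM on the germ line side and at 733 and 316 CPM in differentiating spermatogonia. The ligand PDGFD was at 18.0 to 49.2 CPM on the prepubertal germ line side and at 122 to 409 CPM on the Sertoli side. ID1 and ID3, targets of BMP signalling, were at 105 to 240 and at 117 to 179 CPM on the prepubertal germ line side, but at 38.3 and 58.5 and at 45.3 and 29.2 CPM in the adult non-breeding testes. AMH, the Sertoli hormone that the split used, reached 5120 to 5937 CPM on the prepubertal Sertoli side and 86.5 to 175 CPM on the germ line side.

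**Figure D4:**
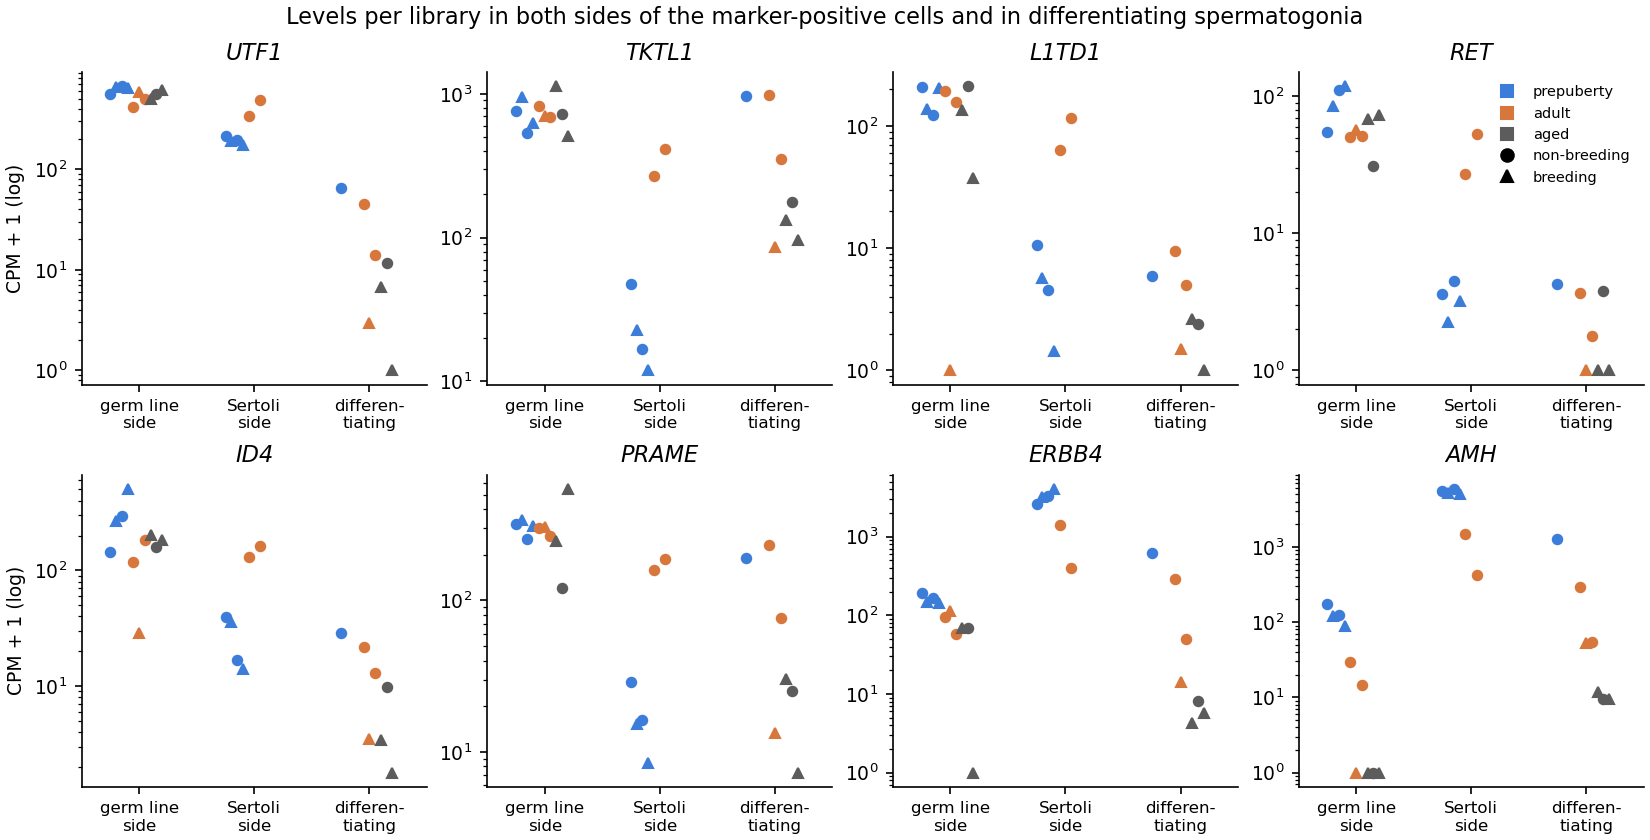
CPM plus 1 on a log axis for 8 genes (panels) in the germ line side, the Sertoli side and differentiating spermatogonia (x axis), 1 point per library with at least 9 cells of the set. Colours give the age, circles non-breeding and triangles breeding testes. L1TD1 and RET separate the sides in prepuberty without overlap, ERBB4 and AMH lie higher on the Sertoli side, and TKTL1 (AMH and TKTL1 were used for the split) stays high in differentiating cells of the non-breeding testes.

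Members were next set against differentiating spermatogonia within the 4 libraries with at least 20 cells of each, the first prepubertal, both adult and the second aged non-breeding testis. Of 12157 genes, 2784 passed (22.9%), 1097 of them higher (9.02%) and 1687 lower (13.9%) in members (edgeR quasi-likelihood test, library as a block, Benjamini-Hochberg adjusted p under 0.05). The 12 genes of both rules were left out. The differentiating set is named by its rule alone, and its levels are set beside all filtered cells below. Both sets were chosen by RNA of the same cells, so the p-values order genes and do not show that the cells are distinct types. On the germ line side of both sets 2423 of 9316 genes passed (26.0%), 1014 higher (10.9%) and 1409 lower (15.1%), and 1757 of the 2086 earlier calls testable in both passed again. Without the library block 100 genes passed, and without the non-breeding testis of adult animal 1 or adult animal 2 it was 1826 and 1142 genes with the block.

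Of 20 tested genes of the undifferentiated list (outside the rule), 12 were higher in members and 2 lower, with a median log2 difference of 1.60 against -0.04 over all genes. L1TD1 was higher by 4.36 ± 0.45 (log2, SE; 4 libraries; edgeR adjusted p = 0.000343) and RET by 3.66 ± 0.56 (edgeR adjusted p = 0.00197), and DUSP6, ID4, THY1, TAF4B, ITGA6, FOXO1 and MSL3 were also higher. POU2F2 was among the lower ones. On the germ line side 14 of 20 were higher, now with SALL4, ETV5 and LIN28B, and 1 was lower. Of the 6 tested genes of the differentiating list (outside the rule), SOHLH1 was higher in members and DNMT1, the maintenance DNA methyltransferase, lower, with a median log2 difference of 0.65. On the germ line side SOHLH1, KDM1B and MAGEC2 of that list were higher and none lower, with a median of 1.06. Among 17 growth factor receptors and response genes 10 were higher and none lower, among them ETV4, DUSP4, SPRY1, SPRY2, INSR, IGF1R and EGFR. With the germ line side alone 9 of 14 were higher and ERBB3 lower, and DUSP4, SPRY1 and SPRY2 were not among those called. EGFR lost its call in 9 alternative settings and kept it in 2, while INSR kept it in 11. SPRY1 lost it in 4 and kept it in 4, and SPRY2 in 3 and 4, with the sign unchanged. Of 19 genes of TGF-beta, BMP and ID signalling 6 were higher (SMAD3, BMPR1A, BMPR1B, ID1, ID2, ID3) and none lower, and on the germ line side 7 of 16 were higher, without SMAD3, and none lower.

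By size, the 15 leading higher genes included GAD2, which makes GABA (4.71 ± 0.54), the RNA-binding RBM24 (4.51 ± 0.45), GDA, a guanine deaminase (4.37 ± 0.42), CRYM, which binds thyroid hormone (4.28 ± 0.43), DNMT3L, a cofactor of DNA methylation in the germ line (3.86 ± 0.69), the homeobox gene SIX3 (3.83 ± 0.45) and IGF2BP2, which binds mRNA (3.48 ± 0.40), all log2 differences with SE and edgeR adjusted p from 0.000339 to 0.00432. BMERB1, HS6ST2, TMTC2, PPP1R1A, PPARG and AZU1 completed them, between 3.29 and 3.69. L1TD1 and RET were the other 2. All but DNMT3L, which was not testable there, were also higher on the germ line side.

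The 15 leading lower genes included SPATA46 (9.96 against 292 mean CPM, log2 difference -5.84 ± 0.51), CYLC2 of the sperm head (18.1 against 282 mean CPM), TMCO2 (32.0 against 624 mean CPM) and SUN5, which joins head and tail (6.05 against 70.4 mean CPM). LRRC18 had no UMI in members of the 4 libraries and 26.8 mean CPM in differentiating cells. The other 10 were GPR18, TP53TG5, SLPI, FAM166A, TTLL2, GTSF1L, LITAFD, ASB17, TMEM270 and TMDD1, at log2 differences between -6.16 and -5.26. All 16 tested genes of the spermatid list, 8 of 12 of the spermatocyte list, 5 of 9 early meiosis genes (HORMAD1, MEIOC, SYCP2, SYCP3, TEX101) and 6 of 18 proliferation genes (BIRC5, TOP2A, CCNB1, CCNB2, CDK1, PCNA) were lower. Within the germ line side it was 15 of 15, 4 of 12, 5 of 9 and 5 of 18 in the same order. Summed over the early meiosis list, the first prepubertal and first adult testis had 203 against 1479 and 649 against 1736 CPM, members first. The second adult and second aged testis had 637 against 588 and 650 against 316 CPM. For the proliferation list the 4 libraries had 774 against 3732, 1431 against 4259, 1712 against 1820 and 2028 against 1400 CPM. Neither summed list thus went the same way in every library. Spermatid RNA was present in both sets, and PRM1, PRM2 and TNP1 took up to 0.969% of member UMIs in these libraries. The summed spermatid list was at 50.6, 234, 2263 and 5006 CPM in members of the 4 libraries, in the same order. Differentiating cells had 2695, 2551, 15637 and 20530 CPM of it. Their spermatocyte list stood at 894, 1653, 6088 and 6969 CPM, against 244, 712, 1749 and 1943 CPM in members. All filtered cells of these libraries had 435, 2291, 18827 and 32713 CPM of the spermatid list. They had 578, 3036, 6860 and 8055 CPM of the spermatocyte list and 570, 1475, 1564 and 1512 CPM of the proliferation list. In the second adult and second aged testis differentiating cells thus lay below all cells on the spermatid and spermatocyte lists. How many of them were differentiating spermatogonia was not tested. The part of later germ cell RNA in the lower genes was not tested. Of 15 piRNA genes DNMT3L, PIWIL2 and TDRD1 were higher and GTSF1, MAEL and MOV10L1 lower, and on the germ line side PIWIL2 and TDRD1 of 14 were higher and GTSF1 lower. In the Sertoli list 2 of 16 were higher, WT1 and SOX9, and on the germ line side SOX9 alone of 11. Over all genes tested 9.02% were higher and 13.9% lower in members, and 10.9% and 15.1% on the germ line side. The small counts of the piRNA and Sertoli lists are therefore not read as a result for either list.

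Between ages, with both libraries of an animal summed, 5386 of 14179 genes (38.0%) differed between adult and prepubertal members, 2676 higher and 2710 lower in adults (edgeR, 2 animals against 2). Season was mixed unevenly, since 399 of 418 adult and 739 of 1399 prepubertal members came from non-breeding testes. With non-breeding libraries alone 1679 of 13650 genes passed, and DESeq2 called 3123 over both seasons. Without prepubertal animal 1 or 2 it was 2945 and 1462 genes. Composition differed between these groups, with 55.3% of adult and 7.79% of prepubertal members on the germ line side. Of the germ line list 10 of 12 were higher in adults and of the Sertoli list 11 of 16 were lower, lists that also describe the composition. DDX4, an RNA helicase of germ cells, went from 27.6 and 12.4 CPM in the prepubertal to 156 and 245 CPM in the adult animals (log2 2.96 ± 0.40, edgeR adjusted p = 0.00132). AMH went from 4858 and 5368 to 821 and 133 CPM (log2 -3.72 ± 0.75, edgeR adjusted p = 0.00577), and ERBB4 from 2816 and 3403 to 808 and 156 CPM (log2 -2.99 ± 0.67, edgeR adjusted p = 0.00914).

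Other groups moved with them. Of 22 immediate early genes, which cells switch on within minutes of a stimulus, 19 were lower in adults and none higher, with a median log2 difference of -3.47 against -0.02 over all genes. FOS went from 3055 and 2678 to 253 and 123 CPM (log2 -4.25 ± 0.47, edgeR adjusted p = 0.000853). FOS was as high in all prepubertal cells (904, 4005, 2719 and 2633 CPM per library) as in members (730, 4002, 2827 and 2425 CPM), while the germ line side held 121 to 297 CPM. Of 18 proliferation genes 16 were higher in adults, with MKI67 at 57.4 and 58.1 against 7.0 and 5.91 CPM. All 10 tested early meiosis genes and 14 of 15 piRNA genes were higher. Of the undifferentiated list 15 of 24 were higher, among them SALL4, L1TD1, ZBTB16, LIN28B, RET and ID4, and 3 lower (ERBB4, CDH1, ITGA6). PDGFA, PDGFC and PDGFD were lower, as were 9 of 21 genes of TGF-beta, BMP and ID signalling. Over the alternative settings PDGFA kept its call in 10 and lost it in 2, and PDGFD kept it in 7 and lost it in 6. PDGFC kept it in 5, lost it in 6 and changed sign in 2.

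The 12 leading higher genes were CCDC70, ACTL9, C10H20orf144, TMEM190, GK2, HMGB4, ACTL7B, SPEM1, ROPN1, ZNRF4, TEX37 and GTSF1L. HMGB4 and SPEM1 are on the spermatid list, of which 14 of 15 tested genes were higher. HMGB4 stood at 571 mean CPM in adults and 0.848 in prepuberty, and 9 of the others had no UMI in prepubertal members. PRM1, PRM2 and TNP1 took 0.0480%, 1.79% and 0.353% of member UMIs in the 3 adult libraries and 0% to 0.00498% in the prepubertal ones, and their part in these genes was not tested. The 12 leading lower genes were KLK1, ANXA3, FYB2, IFI44, BST2, PCDH11X, GNRHR, IFI35, ADAM18, CCN1, TRIM50 and PCP4. Among them PCDH11X, a protocadherin, went from 667 to 11.8 mean CPM and CCN1, a matrix protein, from 304 to 9.34.

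On the germ line side 33 of 10164 genes (0.325%) differed between adult and prepubertal animals, 31 higher and 2 lower in adults. Over 10157 genes tested in both, the median absolute log2 difference was 0.72 in all members and 0.30 on the germ line side, and over the 3990 genes called in all members 1.62 and 0.35. Those 3990 genes were chosen by the fit over all members, which favours a larger value there. The median SE was 0.31 and 0.40. None of the 16 testable immediate early genes, 18 proliferation genes, 15 piRNA genes or 22 undifferentiated genes passed (edgeR, at medians of -0.88, 0.11, 0.05 and -0.25), while 778 genes had an unadjusted p under 0.05. ID3 was lower, at 126 and 160 CPM in prepubertal against 44.5 and 29.2 CPM in adult animals (log2 -1.89 ± 0.33, edgeR adjusted p = 0.0338). AMH was the other, and FATE1 and CST9L of the same Sertoli list were higher, genes that the split used. The higher genes included HMGB4 and TNP2 of the spermatid list and CETN1 and LYAR of the spermatocyte list, beside SMCP, ROPN1 and IZUMO4. ID4, higher in adults over all members by 1.46 ± 0.30, stood at a log2 difference of -1.005 on the germ line side. The signs of RET (-0.81), LIN28B (-0.17), ITGA6 (0.22) and PDGFC (0.17) also differed there from those over all members, with no call for any of them.

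**Figure D5:**
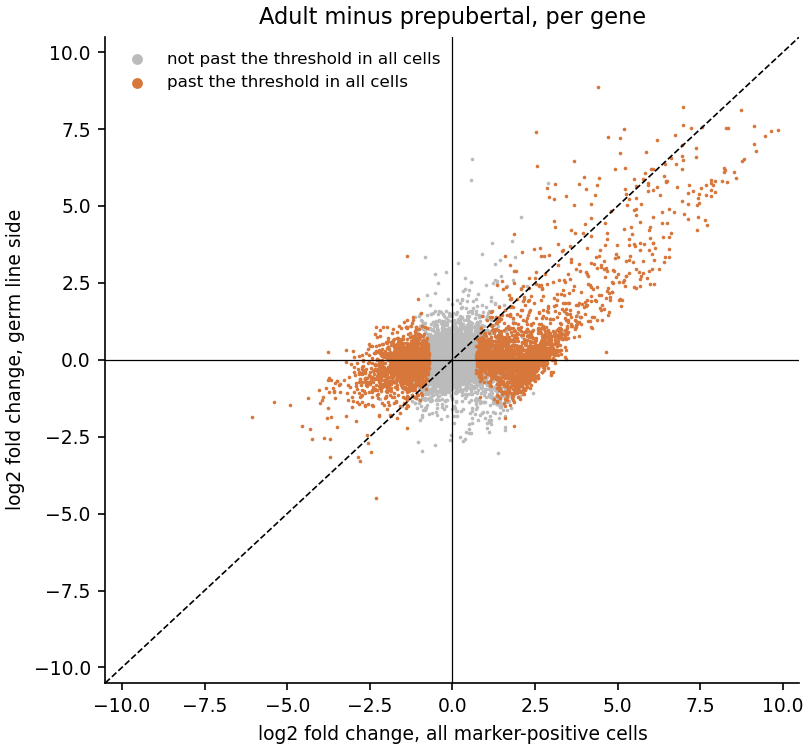
Log2 fold change of adult minus prepubertal animals for 10157 genes in all marker-positive cells (x axis) and on the germ line side (y axis), 1 point per gene. Genes past the threshold in all marker-positive cells are orange and the dashed line marks equal values. Most orange points lie near 0 on the y axis, with a median absolute change of 0.35 against 1.62 on the x axis, by whose fit they were chosen.

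Aged members came from 1 animal with 53 cells, since the other had 14. None of 14179 genes (0%) passed between aged and adult members (edgeR, 992 at an unadjusted p under 0.05), DESeq2 called 25, and without adult animal 2 edgeR called 111. On the germ line side 5 of 10164 genes (0.0492%) were higher in aged cells, DCUN1D1, SLC6A17, OAZ3, C2H3orf22 and 1 gene without a symbol. The single aged animal is assumed in both fits to vary like the prepubertal and adult animals, which set the spread. PRM1, PRM2 and TNP1 took 0.811% to 2.27% of member UMIs in the aged libraries. Levels of the stem cell genes L1TD1 (210 CPM), ID4 (157 CPM) and RET (30.0 CPM) on the germ line side of the aged library with 39 such cells are given as values, since 1 animal sets them.

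Season was compared within prepuberty, the age with at least 20 members in every library. No gene of 14611 (0%) passed (edgeR without the animal, 519 at an unadjusted p under 0.05), and DESeq2 called 20. With the animal as a block, pairing both testes of an animal, 263 genes passed (1.80%), 215 higher and 48 lower in the breeding season. That fit had 1 residual degree of freedom. In it 8 of 22 immediate early genes were higher and 6 of 11 heat shock genes lower. The summed heat shock list went from 5099 to 3210 CPM in members of animal 1 and from 5103 to 2711 CPM in animal 2. It also fell in all filtered cells, from 3941 to 2934 and from 4715 to 2484 CPM, so the fall was not particular to members. The summed level of the immediate early list went in opposite directions in the animals, from 3337 to 11277 CPM in animal 1 and from 9007 to 8055 CPM in animal 2, as did FOS, from 730 to 4002 and from 2827 to 2425 CPM. NR4A3, an orphan nuclear receptor, went from 10.99 to 167 CPM in animal 1 and from 35.4 to 262 CPM in animal 2 (log2 3.37 ± 0.27 with the block), and NR4A1 from 126 to 797 and from 367 to 768 CPM. Over all cells of these libraries NR4A1 stood at 113 and 685 and at 306 and 689 CPM, and on the germ line side at 35.9 and 31.6 and at 43.1 and 74.2 CPM. HSPH1, a chaperone, went from 76.9 to 40.0 and from 170 to 54.4 CPM (log2 -1.20 ± 0.24 with the block), and DNAJB1 from 48.4 to 52.2 and from 281 to 49.1 CPM, so that for DNAJB1 the animals moved in opposite directions.

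A single library set other values. CST9L, a cystatin of Sertoli cells, stood at 267 CPM in members of the first non-breeding prepubertal testis and at 2.05 to 5.54 CPM in the other 3, and FATE1 at 298 against 34.4 to 75.2 CPM. That library also held 83 differentiating spermatogonia against 3 to 7 in the others. HMGB4 and TNP2, lower in the breeding season with the block, had UMIs in that library alone, at 5.86 CPM each, and CETN1 stood at 14.7 CPM there and 0.895 to 1.69 CPM in the others. Without the non-breeding testis of animal 2 edgeR called 4 genes without the block, and without the one of animal 1 none (486 at an unadjusted p under 0.05).

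For adults and aged animals too few breeding members were found for the fit. With a minimum of 5 members instead, 11 of 13949 genes (0.0789%) were higher in the 19 members of 1 adult breeding testis, among them SLC6A17, TPPP2, SPATA3, PFN3 and ACTL9, and none was lower. That 1 library is assumed to vary like those of the other groups, which set the spread. With the animal as a block and a season term for each age 156 genes passed (1.12%), 149 higher and 7 lower, on 1 pair of adult testes. SPATA3 was at 517 CPM there and at 1.26 and 54.0 CPM in the non-breeding testes, and the 3 spermatid genes took 1.79% of UMIs against 0.0480% and 0.353%. In aged animals 0 of 13949 genes (0%) passed (edgeR, 473 at an unadjusted p under 0.05), and with the block 0 (0%; edgeR, 321 at an unadjusted p under 0.05).

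Across the series the libraries held 333 to 13159 barcodes and 959819 to 43405583 UMIs. The adult breeding testis of animal 2 stood apart, with 117 filtered cells of 333 barcodes, and 46 of its filtered barcodes (39.3%) also occurred in the breeding library of aged animal 1. Pairs of the other libraries shared 13 to 50 filtered barcodes, and no member barcode was a member in another library. Without that adult animal the mean seasonal log2 ratio of the share was -0.59.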

How the data were processed

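Testis cells were profiled by droplet single-cell RNA-seq, and 12 libraries (6 animals, 1 library per testis and season) were used. The labels list 48 samples in 6 groups of 8, and the study's library sheet ties each group to 2 libraries. Per the study's methods and the submitters' processing notes, the authors made the deposited UMI counts with Cell Ranger 9.0.0 on the Mmul_10 assembly as filtered matrices of 26530 features, without pooling. Of these 9920 had no symbol and 565 were named by gene ID from a reference table of gene names, UTF1 and SOHLH2 of the rules among them, and the 86 that shared a symbol were kept under their ID. For introns, the setting of the counting step is not given. The members and all gene lists were chosen with earlier results of these data known.

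Counts were summed over members per library (per animal for ages) where at least 20 members were found, and tested with edgeR 4.0.16 (TMM, filterByExpr, quasi-likelihood, adjusted p under 0.05) in R 4.3.3. Ages and seasons each shared 1 fit over all libraries or animals with enough members. DESeq2 1.42.0 was an alternative. Shares were tested by an exact sign-flip over animals, with 0.5 added to counts except for the cycling share. The exact binomial intervals came from scipy 1.17.1. Doublets were called with Scrublet in scanpy 1.11.5 and kept in the main results. The scripts were tested on simulated data. Named genes were the 12 higher and 12 lower (15 and 15 against differentiating spermatogonia) with the largest change among those past the threshold with at least 20 CPM in 1 group, plus members of the lists. The germ line and Sertoli sides, the minimum of 5 members for adult and aged seasons, and its fits with the animal as a block, were added after the data were seen. Both testes of an animal carry its number. In the prepubertal libraries alone, the difference between the animals correlated between seasons (r = 0.436 over 7840 genes, with no test). The values of 1 gene of the undifferentiated list are not reported here.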

Additional observations from a re-analysis of the deposited data

How the results depend on the processing

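Settings were changed 1 at a time. The mean seasonal log2 ratio of the share was 0.048 after thinning to 1000 UMIs, and -1.27 to -0.21 leaving out 1 animal. In the thinned setting adult animal 2 had 0 of 44 breeding cells and entered as 1.92. The ratio to differentiating spermatogonia was -0.067 after thinning and ranged from -0.75 (without prepubertal animal 1) through -0.33 (without adult animal 2) to 0.84 leaving out 1 animal. The cycling difference was -6.44 or 0.898 percentage points in the single animal left.

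For the prepubertal season, where edgeR called no gene, DESeq2 called 20, no filter on low counts 50, members with germ line evidence 2, predicted doublets left out 6 and the Sertoli side 7, and leaving out 1 library gave 0 to 4. Pairing the testes through a replicate block gave 263 calls. Adult minus prepubertal calls (5386) were 3123 with DESeq2, 306 with 3 marker genes (1 adult animal, as the other had 19 such cells), 699 with germ line evidence, 33 on the germ line side, 1679 in non-breeding libraries and 1462 to 5595 leaving out 1 animal. An age left with 1 animal is assumed to vary like the others. ID4 then stood at -0.24 (germ line evidence) and -1.005 (germ line side), and PRAME at -0.080 on the germ line side. RET stood at -0.0005 and -0.81 under the same settings, and on the germ line side LIN28B stood at -0.17, ITGA6 at 0.22 and PDGFC at 0.17. PDGFC was at 0.11 with 3 marker genes. Aged minus adult calls (0) were 25 with DESeq2, 169 with no filter, 2 without doublets, 5 on the germ line side and 0 to 111 leaving out 1 animal. Calls against differentiating spermatogonia (2784) were 4570 with no filter, 100 with no replicate block and 1142 to 3706 leaving out 1 library. The smaller fits held fewer cells or genes, and other causes were not tested.

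At a minimum of 5 members the replicate block gave 156 calls in place of 11 for the adult season (1 pair of testes) and 0 in both fits for the aged season. The rule of 3 marker genes left too few members for the season, aged and differentiating fits and for cycling. The adult and aged season fits and their interaction were not run at 20 members, nor were their alternatives. Depth and 2 animals per age limit every comparison.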
